A study of Rattus norvegicus with 24 samples.

Results

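The 9 class II genes of the rat major histocompatibility complex (MHC) considered here are RT1-DMa, RT1-DMb, RT1-DOa, RT1-DOb, RT1-Ba, RT1-Bb, RT1-Da, RT1-Db1 and RT1-Db2. They were taken by symbol from the probe names of the array and from the MHC gene list of the study, and all 9 were found among the 7249 genes measured. They were represented by 19 probes of 60 bases. The samples were paw skin explants of 12 male BN rats aged 15 weeks (haplotype RT1n), trimmed to about 1.5 by 1.5 mm and cultured for 3 days with lymphocytes. In the allogeneic sample the lymphocytes came from PVG rats (haplotype RT1c) and had been stimulated for 7 days with BN spleen cells irradiated with 25 Gy, a mixed lymphocyte reaction that leads to a graft-versus-host reaction in the explant. In the syngeneic sample the lymphocytes were BN cells from a BN culture set up the same way, so both samples of a rat held BN skin and cultured lymphocytes. RNA was taken from the washed explant as a whole, so that a lower signal from fewer cells of a type and from less RNA per cell cannot be told apart. The study designed its MHC probes with the BN sequence. Whether they bind transcripts of PVG cells equally well was not tested.

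Class II molecules are pairs of an alpha and a beta chain that carry peptides to the surface of antigen presenting cells, where CD4 T cells read them. The rat has a pair of classical types, RT1-B (alpha chain RT1-Ba, beta chain RT1-Bb) and RT1-D (alpha chain RT1-Da, beta chains RT1-Db1 and RT1-Db2). RT1-DM, made of RT1-DMa and RT1-DMb, is a chaperone of the endosome that removes the placeholder peptide of the invariant chain and lets other peptides bind. RT1-DO, made of RT1-DOa and RT1-DOb, binds RT1-DM and inhibits it, and is known mainly from B cells and some dendritic cells. In skin, class II proteins are found above all on Langerhans cells, dermal dendritic cells and macrophages, and interferon gamma induces them on keratinocytes.

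The probes differ in what they can show, so the sequences on which the comparisons rest are given first, each read 5′ to 3′ in the sense of the transcript. RT1-DMb had 5 probes that fall into 2 windows, the first covered by 2 probes with 59 bases in common and the second by 3 probes with 58 bases in common. Their first 30 bases are shown.
RT1-DMb first window: accttgtcacagaaggcactgtgtcacgat
RT1-DMb second window: ttgtgtcataattcctctactcagttccac
The 5 probes of RT1-Db2 were tiled over a single place in steps of 1 base and shared 56 bases. The first and the last are shown, with the bases that the other lacks in capitals.
RT1-Db2 probe 1: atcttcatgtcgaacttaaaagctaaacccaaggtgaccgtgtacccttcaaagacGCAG
RT1-Db2 probe 5: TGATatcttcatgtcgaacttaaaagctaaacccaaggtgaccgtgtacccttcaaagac
RT1-Ba had 3 probes, of which 2 were 2 versions of the same stretch of sequence. Over their common stretch 49 bases were identical, 5 differed and the second version held 3 more bases. Capitals mark the bases that differ or are added.
RT1-Ba first sequence version: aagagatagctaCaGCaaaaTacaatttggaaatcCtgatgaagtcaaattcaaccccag
RT1-Ba second sequence version: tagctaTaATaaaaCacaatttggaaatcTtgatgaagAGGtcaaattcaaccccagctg
The other genes, RT1-DMa, RT1-DOa, RT1-DOb, RT1-Bb, RT1-Da and RT1-Db1, had 1 probe each. The files placed 8 of the 19 probes in the rat build rn3, all on chromosome 20 within 250 kb. RT1-Da lay at chr20:4641331-4641390, RT1-Db1 at chr20:4672904-4672963, the first version of RT1-Ba at chr20:4701200-4701259, RT1-Bb at chr20:4730760-4730810, RT1-DOb at chr20:4755696-4755755, RT1-DMa across chr20:4843931-4844293 and RT1-DOa at chr20:4891357-4891416. Exons and untranslated parts were not annotated in the files used here.

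RNA of both explants of a rat was hybridized to 2 arrays with exchanged dyes, which gave 24 arrays on 3 slides of 4 rats. Log2 ratios of the allogeneic over the syngeneic sample were averaged over the 2 arrays, so that n is 12 rats. The direction follows the dye labels and is opposite to that given by the study: values below 0 stand for a weaker signal in the explant labelled as allogeneic. The array data alone do not settle which direction is right. The study also ran quantitative real-time PCR, without these dye labels, on RT1-DMb and other selected genes in a subset of these sample pairs. It reported RT1-DMb as higher in the allogeneic explants, the direction opposite to the one used here. Most of the other genes tested by PCR also changed in the direction of the study's own array values. RT1-DMb was further reported as higher than in explants cultured in medium only. In skin lesions of transplanted rats it was reported as higher than in healthy skin. The general regulation of the selected genes was described as reproduced in a further set of explants. With the dyes read the other way every sign below would turn, lower would read higher, and sizes and p-values would stay, so that lower and allogeneic are used here only in the sense of the labels. Between 74.8% and 99.9% of probe spots per array and dye were well above background. The first array of rat 10 was far brighter than the rest and was left out of the levels given below, though not of the ratios. The 2 arrays of a rat correlated with r between 0.13 and 0.94, under 0.5 in rats 2, 3, 6 and 10, and the profile of rat 8 stood apart from the other rats (median r 0.17). The keratinocyte and fibroblast or endothelial markers of the array were detected, but only 2 of 12 keratinocyte markers, Cdh1 and Tp63, were measured.

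Of the 9 genes, 4 were lower in the allogeneic sample and 0 were higher (limma, Benjamini-Hochberg adjusted p under 0.05 over 7249 genes), where 7.56% of all genes were lower and 8.64% higher. These 4 were the chaperone genes RT1-DMa and RT1-DMb, the inhibitor gene RT1-DOb and the classical beta chain gene RT1-Db2. At an unadjusted p under 0.05 the same 4 genes were below the threshold, and exact permutation of the signs across 12 rats also called these 4. RT1-Ba, RT1-Bb, RT1-Da, RT1-Db1 and RT1-DOa did not pass. The median log2-fold change of the 9 genes was -0.12, and that of all genes 0.012. By probe, 11 of 19 were lower against 8.48% of all 8453 probes, but the tiled probes of RT1-DMb and RT1-Db2 share their target and are not independent of each other. Each dye orientation alone called the same 4 genes. The 4 rats of slide 1 alone called RT1-DMa and RT1-DMb, those of slide 2 called 0 genes, and those of slide 3 called RT1-Da and RT1-Db1 in their place. Without the 4 rats whose arrays correlated poorly 2 genes were left, RT1-DMb and RT1-DOb.

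**Figure D1:**
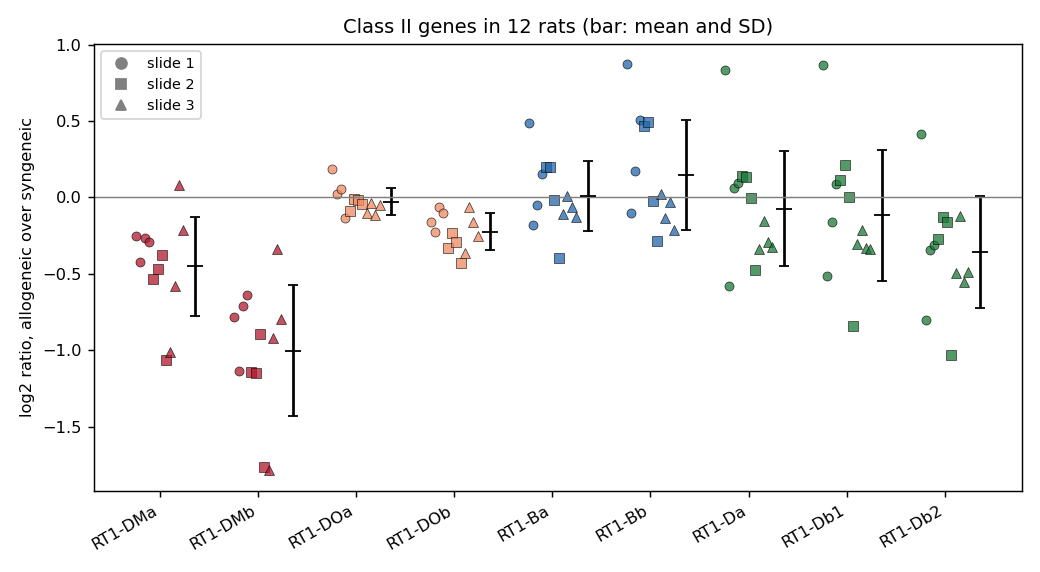
Log2 ratio of the allogeneic over the syngeneic sample for the 9 class II genes, with 1 point for each of 12 rats in order from left to right, the marker shape giving the slide, and the bar giving mean and SD. RT1-DMb and RT1-DOb lie below 0 in all 12 rats, while RT1-Ba, RT1-Bb, RT1-Da and RT1-Db1 lie on both sides of 0, with rat 1 highest.

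RT1-DMb showed the largest difference. Its level on the log2 scale of normalized signal was 10.43 in the lowest, 11.03 in the median and 12.11 in the highest syngeneic sample, and 9.76, 10.05 and 10.35 in the allogeneic samples. Every allogeneic sample was thus below every syngeneic one, which held for 0.441% of all genes. Among the 9 genes, RT1-DMb was the only one whose levels did not overlap. The spread over rats was 0.46 (SD) in the syngeneic and 0.20 in the allogeneic samples. The log2-fold change was -1.004 ± 0.429 (SD, n = 12 rats; adjusted p = 0.000169), a 2.01-fold lower signal, and ranged from -1.79 in rat 9 to -0.34 in rat 11. RT1-DMb was lower in 12 of 12 rats and had the lowest log2 ratio of the 9 genes in 11 of them. By size of its log2-fold change it stood at place 41 from the lowest of 7249 genes, which would be place 41 from the highest with the dyes read the other way.

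All 5 RT1-DMb probes passed the test, and the 2 windows differed in size. In the first window the log2-fold changes were -1.20 ± 0.52 and -1.25 ± 0.54 (SD, n = 12 rats; adjusted p = 0.000152 for both). In the second window they were -0.87, -0.83 and -0.86. The mean over the first window was below that over the second by 0.37 ± 0.18 (SD) on the log2 scale, in 12 of 12 rats. The size of the RT1-DMb change therefore depended on the window, and its direction did not.

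RT1-DMa, which encodes the alpha chain of the same chaperone, differed less. Its level was 10.20, 10.54 and 11.46 in the lowest, median and highest syngeneic sample and 9.79, 10.13 and 10.40 in the allogeneic samples, so that the groups overlapped. The log2-fold change was -0.45 ± 0.33 (SD, n = 12 rats; adjusted p = 0.00422), a 1.37-fold lower signal. It was lower in 11 of 12 rats, with -1.07 in rat 8 and 0.08 in rat 11. Within the slides the means were -0.31, -0.61 and -0.43. Without the 4 rats with poorly correlated arrays the mean was -0.46, but it no longer passed (adjusted p = 0.0634).

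**Figure D2:**
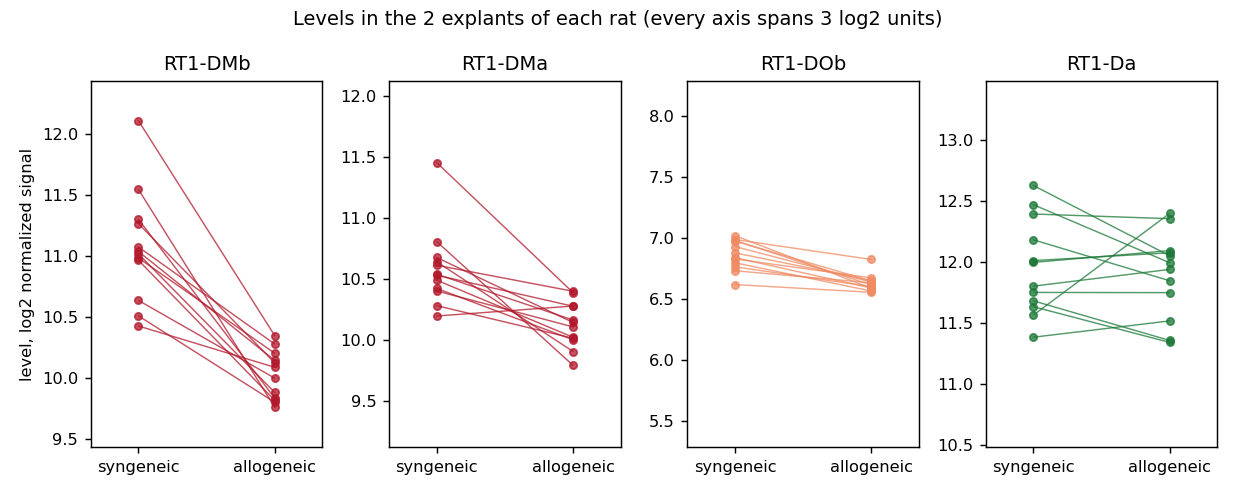
Levels of 4 class II genes as log2 normalized signal in the syngeneic and the allogeneic explant of each rat, joined by a line, with an axis of 3 log2 units in every panel and only the second array for rat 10. RT1-DMb falls in every rat from 10.43 to 12.11 down to 9.76 to 10.35, while the lines of RT1-Da go in both directions.

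The RT1-DM chains moved together from rat to rat. Pearson's r of RT1-DMb and RT1-DMa was 0.96 (permutation p adjusted over 7 pairs = 7e-05) and Spearman's rho was 0.87 (permutation p adjusted over 7 pairs = 0.00154). Without rats 8 and 9, which had the lowest ratios of both genes, r was 0.87. Within rats RT1-DMb was lower than RT1-DMa by a log2 ratio difference of -0.55 ± 0.15 (SD, n = 12; exact permutation of signs, two-sided, p adjusted over 7 pairs = 0.00114). This held in 12 of 12 rats, and the slide means were -0.51, -0.63 and -0.53. Since the 2 ratios come from different probes, this compares changes and not levels of the chains. The size of a change also depends on the probe, as the RT1-DMb windows themselves differed by 0.37 ± 0.18 (SD). The test therefore cannot separate a difference of genes from a difference of probes.

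RT1-DOb, the beta chain gene of the inhibitor, was lower as well, at a signal near background. The syngeneic sample was well above background for this probe on 22 arrays of 24, and the allogeneic sample on 16. The level was 6.62, 6.86 and 7.02 in the lowest, median and highest syngeneic sample and 6.56, 6.62 and 6.82 in the allogeneic samples, which overlap. The log2-fold change was -0.22 ± 0.12 (SD, n = 12 rats; adjusted p = 0.000813), from -0.43 in rat 8 to -0.06 in rat 3, and lower in 12 of 12 rats. Its size depended on how background was treated. With the processed signals of the scanner software the log2-fold change was -0.81 (adjusted p = 0.000143), and in the table of log ratios deposited by the authors it was -0.59. Direction and call were the same in all 3, and the size was not.

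RT1-DOa, the alpha chain gene of the inhibitor, gave no call. For its probe, 15 arrays of 24 were well above background in the syngeneic sample and 14 in the allogeneic sample. Its log2-fold change was -0.027 ± 0.088 (SD, n = 12 rats; adjusted p = 0.534), with a range of -0.13 to 0.19 and a 95% interval of -0.083 to 0.029. Within rats RT1-DOb was below RT1-DOa by -0.20 ± 0.13 on the log2 ratio scale in 11 of 12 rats (exact permutation of signs, two-sided, p adjusted over 7 pairs = 0.00205). Where Cy3 marked the allogeneic sample this difference was -0.085 and did not pass (exact permutation, adjusted p = 0.069). It was larger with the processed signals (-0.68) and in the authors' table (-0.50). The 2 genes did not vary together detectably, with r = 0.22 and rho = 0.22 (permutation p adjusted over 7 pairs = 0.498 and 0.5), and r = 0.41 without rats 1 and 4.

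RT1-Ba and RT1-Bb, the chains of the first classical molecule, were on both sides of 0. RT1-Bb had a level of 11.54, 12.26 and 12.88 in the lowest, median and highest syngeneic sample and of 11.87, 12.49 and 12.77 in the allogeneic samples. Its log2-fold change was 0.15 ± 0.36 (SD, n = 12 rats; adjusted p = 0.355; 95% interval -0.081 to 0.37), positive in 6 of 12 rats. RT1-Ba gave 0.0092 ± 0.227 over its 3 probes (adjusted p = 0.944; 95% interval -0.14 to 0.15), a sign that turned with the processed signals (-0.17). Only the second sequence version, which few arrays detected, was negative there (-0.66), while the other RT1-Ba probes gave 0.048 and 0.10. Rat 1 had the highest value of both genes (0.49 and 0.87) and rat 8 the lowest (-0.40 and -0.28).

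The RT1-Ba probes did not behave alike. The probe outside the doubled stretch, at chr20:4702676-4702735, gave 0.033 ± 0.288 and the first sequence version 0.090 ± 0.356 (SD, n = 12 rats; adjusted p = 0.822 and 0.583). Each of the 24 arrays detected both probes in either sample. The second version gave -0.095 ± 0.095 (adjusted p = 0.0317), but only 5 arrays detected it above background in the syngeneic sample and 3 in the allogeneic sample. Its size too depended on the treatment of background, with -0.66 from the processed signals and -0.48 in the authors' table. Among the 4 probes called lower for the classical genes, this is the one that is not an RT1-Db2 probe.

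RT1-Da and RT1-Db1, chains of the second classical molecule, did not pass the test either. RT1-Da had levels of 11.38, 11.90 and 12.63 in the lowest, median and highest syngeneic sample and of 11.34, 11.97 and 12.40 in the allogeneic samples. Its log2-fold change was -0.075 ± 0.377 (SD, n = 12 rats; adjusted p = 0.681; 95% interval -0.31 to 0.17), from -0.58 in rat 2 to 0.83 in rat 1. RT1-Db1 gave -0.12 ± 0.43 (adjusted p = 0.552; 95% interval -0.39 to 0.15), from -0.84 in rat 8 to 0.87 in rat 1. The rats of slide 3 taken alone passed for both genes, with -0.28 for RT1-Da and -0.30 for RT1-Db1 (limma, adjusted p = 0.0464 and 0.0398), while the rats of slide 1 gave 0.10 and 0.072.

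RT1-Db2, the other beta chain gene of that molecule, was lower. Its level was 8.14, 8.59 and 9.16 in the lowest, median and highest syngeneic sample and 7.89, 8.21 and 8.62 in the allogeneic samples. The log2-fold change was -0.36 ± 0.37 (SD, n = 12 rats; adjusted p = 0.0274), a 1.28-fold lower signal, and was negative in 11 of 12 rats. Rat 1 was the exception with 0.42. The call was lost without rat 2, rat 9, rat 11 or rat 12 (adjusted p up to 0.0578). It was also lost when the brightest of the 5 probes stood for the gene (-0.26, adjusted p = 0.127).

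Along the tiled RT1-Db2 probes the log2-fold change grew with each base of shift. It was -0.26, -0.31, -0.34, -0.41 and -0.46 from probe 1 to probe 5, and probes 3, 4 and 5 passed (adjusted p = 0.0339, 0.0076 and 0.00415). The median syngeneic level fell over the same probes, from 9.24 through 8.83, 8.54 and 8.23 to 8.10. Each step of 1 base lowered the ratio in 11, 8, 10 and 10 of 12 rats. The 5 values describe 1 place in 1 transcript, and the part of the probe signal in this order was not tested.

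**Figure D3:**
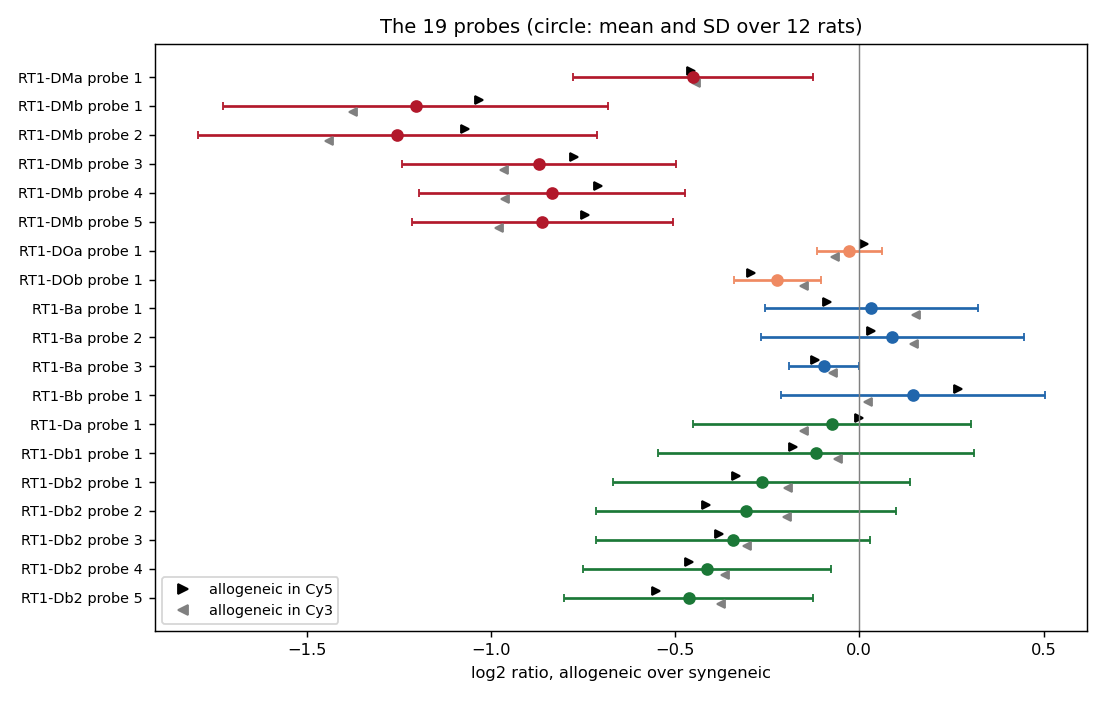
Log2 ratio of the allogeneic over the syngeneic sample for the 19 probes, with circles and bars for the mean and SD over 12 rats and triangles for the mean over the 12 arrays of each dye orientation. The 5 RT1-DMb probes fall into groups of 2 near -1.23 and 3 near -0.85, and the RT1-Db2 probes move from -0.26 to -0.46 along the tiling.

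The classical genes varied widely between rats and did so together. Over the 10 pairs of the 5 classical genes r lay between 0.75 and 0.98, whereas RT1-DMa or RT1-DMb had r between 0.25 and 0.41 with them, as a description over 12 rats. Of the 7 pairs set for testing, RT1-Db1 and RT1-Da had r = 0.96 and rho = 0.96 (permutation p adjusted over 7 pairs = 7e-05 for both, from a raw p of 1e-05, the smallest that these permutations can give), with r = 0.92 without rats 1 and 2. RT1-Bb and RT1-Ba had r = 0.93 and rho = 0.82 (permutation p adjusted over 7 pairs = 7e-05 and 0.00346) and r = 0.88 without rats 1 and 8. RT1-Db2 and RT1-Db1 had r = 0.94 and rho = 0.85 (permutation p adjusted over 7 pairs = 7e-05 and 0.00198) and r = 0.80 without the same rats. With 4 rats to a slide, no correlation was computed within slides.

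RT1-DMb showed no detectable correlation with the classical alpha chains over 12 rats, a number that leaves r imprecise. With RT1-Da it had r = 0.35 and rho = 0.30 (permutation p adjusted over 7 pairs = 0.303 and 0.483), and r = 0.37 without rats 1 and 2. With RT1-Ba it had r = 0.41 and rho = 0.22 (permutation p adjusted over 7 pairs = 0.267 and 0.5), and r = 0.047 without rats 1 and 8. Leaving out each rat in turn, r lay between 0.21 and 0.51 with RT1-Da and between 0.13 and 0.53 with RT1-Ba. Whether these correlations differ from those of the other pairs was not tested.

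Within rats RT1-DMb was below RT1-Ba by -1.01 ± 0.40 and below RT1-Da by -0.93 ± 0.46 on the log2 ratio scale, each in 12 of 12 rats (exact permutation of signs, two-sided, p adjusted over 7 pairs = 0.00114 for both). The slide means were -0.92, -1.23 and -0.89 against RT1-Ba and -0.92, -1.19 and -0.68 against RT1-Da. RT1-Db2 was below RT1-Db1 by -0.24 ± 0.15 in 11 of 12 rats (exact permutation, adjusted p = 0.00171), with slide means of -0.33, -0.27 and -0.12. RT1-Bb was above RT1-Ba by 0.14 ± 0.17 in 9 of 12 rats (exact permutation, adjusted p = 0.0251). That last difference was larger with the processed signals (0.32), in the authors' table (0.26) and in the Cy5 orientation (0.33). RT1-Ba here includes its second sequence version, which few arrays detected. That version gave -0.66 with the processed signals and -0.48 in the authors' table. With only probes well above background RT1-Ba was 0.061 and RT1-Bb 0.15, and their difference was not tested. Over all probes the difference of RT1-Bb and RT1-Ba was -0.016 on slide 3 and -0.053 in the Cy3 orientation. It was lost without rat 1, rat 4, rat 5 or rat 6 (exact permutation, adjusted p = 0.0501). RT1-Db1 and RT1-Da differed by -0.043 ± 0.128 (exact permutation, adjusted p = 0.343), with a 95% interval of -0.12 to 0.038. That pair passed in a single dye orientation only, with -0.18 for Cy5 (exact permutation, adjusted p = 0.00114) and 0.092 for Cy3. In all 7 pairs the genes were measured by different probes, so these tests cannot separate a difference of genes from one of probes.

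**Figure D4:**
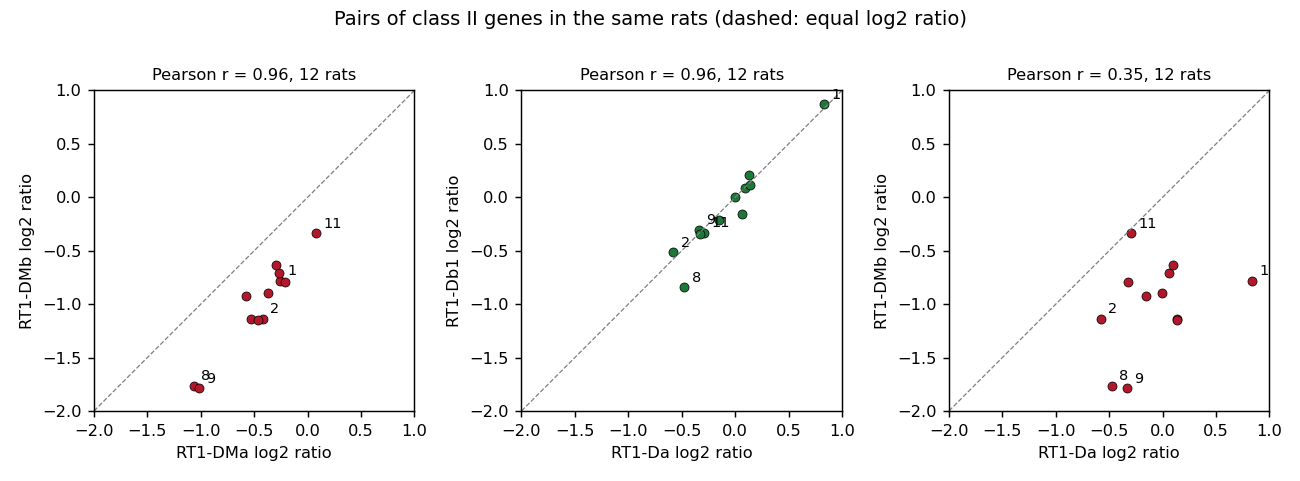
Log2 ratios of 3 pairs of class II genes, with 1 point for each of 12 rats and the dashed line marking equal ratios. RT1-DMb and RT1-DMa lie on a line below the diagonal (r = 0.96), RT1-Db1 and RT1-Da lie along it (r = 0.96), and RT1-DMb against RT1-Da shows no such line (r = 0.35).

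Promoters of class II genes share the X and Y boxes, to which the RFX complex and NF-Y bind and on which the coactivator CIITA acts. Because some members were lower and others were not, their promoters were compared for these boxes. Of the 9 genes, 8 had an entry in the RefSeq table of promoters (GRCr8, from 250 bases before to 50 bases after the start). RT1-DMb had no entry, so the promoter of the gene with the largest difference was not examined. The letters ATTGG, the core of the Y box, were found on either strand (CCAAT on the other) in 8 of these 8 and in 37.5% of all 33469 promoters. The letters ACNGATG, from the X box, were found on either strand (CATCNGT on the other) in 6 of 8 and in 10.2% of all. ACNGATG followed by ATTGG in the direction of the gene, with 25 to 35 bases between their starts, was present in 6 of 8 and in 18 of all 33469 promoters (0.0538%). Those 6 were RT1-DMa, RT1-DOb, RT1-Bb, RT1-Da, RT1-Db1 and RT1-Db2, and they are counted among the 18. The spacing was set after the promoters were read, so the share describes the pattern and does not test it. Stretches of 2 genes that passed the test and of 2 that did not are shown, with both cores in capitals.
RT1-DMa promoter, chr20:4712389-4712435, minus strand: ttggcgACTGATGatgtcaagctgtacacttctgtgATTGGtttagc
RT1-DOb promoter, chr20:4627596-4627639, minus strand: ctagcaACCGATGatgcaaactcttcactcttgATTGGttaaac
RT1-Bb promoter, chr20:4604169-4604214, minus strand: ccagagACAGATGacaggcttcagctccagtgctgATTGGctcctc
RT1-Da promoter, chr20:4515330-4515376, plus strand: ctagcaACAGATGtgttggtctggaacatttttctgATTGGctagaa
The starts of the cores lay 30 bases apart in RT1-DMa and RT1-Da, 29 in RT1-Bb and 27 in RT1-DOb. Genes with this spacing were thus found among those that passed and among those that did not. The window does not hold the letters ACNGATG for RT1-Ba and RT1-DOa.

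Among partners of the class II molecules outside these genes, 12 of 21 listed were measured, of which 3 were lower and 0 higher, beside 7.56% and 8.64% of all genes. The median log2-fold change was -0.11, and 0.012 over all genes. Ctss, which encodes cathepsin S, the protease that trims the invariant chain, changed most, by -1.40 ± 0.61 (SD, n = 12 rats; limma, adjusted p = 0.000176), and was lower in 12 of 12 rats. Ifi30, a thiol reductase of the endosome, gave -0.46 ± 0.27 (adjusted p = 0.00124), also lower in 12 of 12. Cd80, a costimulatory ligand, gave -0.10 ± 0.070 (adjusted p = 0.0065) with a probe that was not well above background on at least 12 arrays, and its size was -0.60 with the processed signals. Cd74, the invariant chain that occupies the groove of new class II molecules, gave -0.21 ± 0.38 (adjusted p = 0.207) and was lower in 8 of 12 rats. RT1-Ha and RT1-Hb, the counterparts of human DP genes, gave -0.0085 and -0.041 (adjusted p = 0.804 and 0.46), where RT1-Hb passed in opposite directions in the Cy5 (0.13) and the Cy3 orientation (-0.22).

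Among regulators of class II transcription, 25 of 29 listed were measured, 5 were lower and 0 higher, beside 7.56% and 8.64% of all genes, and the median was -0.045, against 0.012 over all genes. Ciita, the coactivator on which class II transcription depends, gave 0.043 ± 0.136 (SD, n = 12 rats; limma, adjusted p = 0.499), and Rfx5, a subunit of the RFX complex, gave 0.020 ± 0.062 (adjusted p = 0.535). Spi1, a transcription factor of myeloid and B cells, gave -0.67 ± 0.35 (adjusted p = 0.000596) and Socs1, an inhibitor of cytokine signaling, gave -0.35 ± 0.24 (adjusted p = 0.00378), each lower in 12 of 12 rats. Nfya, a subunit of NF-Y, gave -0.22 ± 0.21 and Creb1, which binds next to the X box, -0.19 ± 0.15 (adjusted p = 0.0185 and 0.00779). Ifngr2, a chain of the interferon gamma receptor, gave -0.18 ± 0.21 (adjusted p = 0.0457), with -0.0095 in the Cy5 orientation and -0.35 in the Cy3 orientation. Its call was lost with the processed signals (adjusted p = 0.0524).

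**Figure D5:**
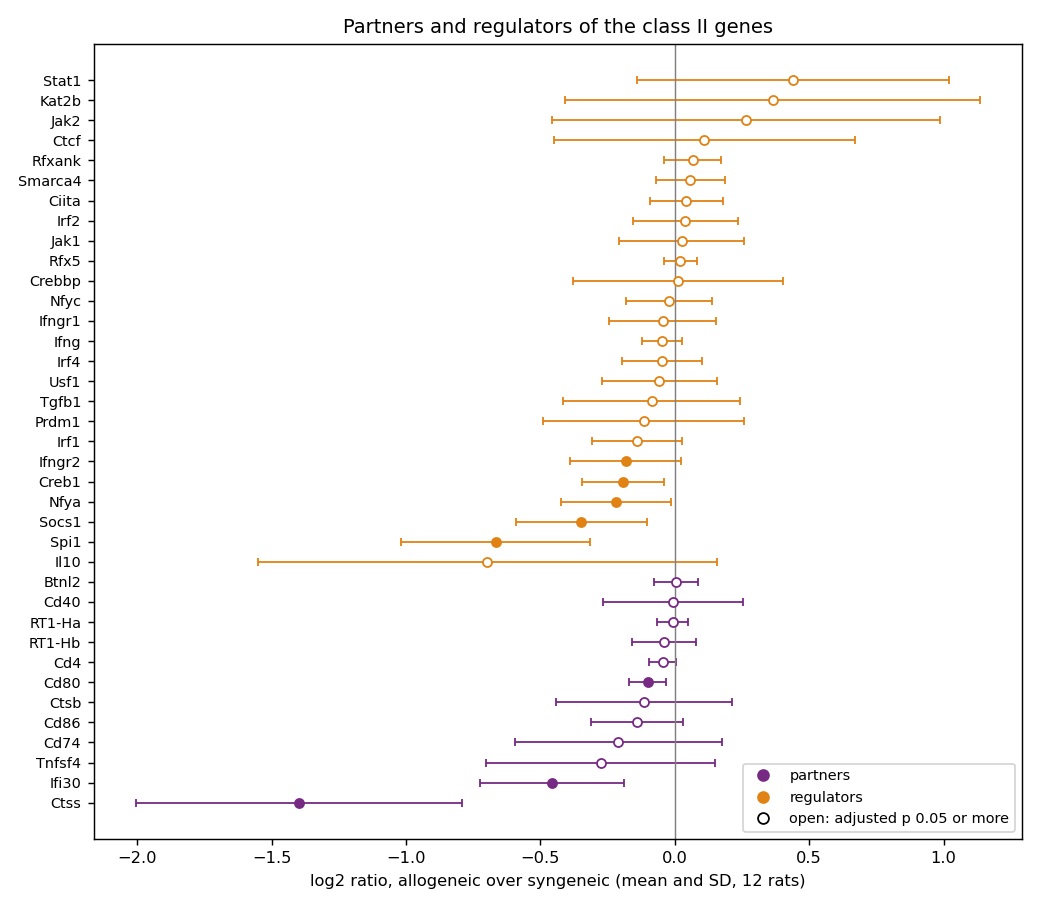
Log2 ratio of the allogeneic over the syngeneic sample (mean and SD over 12 rats) for the measured partners and regulators of the class II genes, with filled circles for an adjusted p under 0.05. Of 37 genes, 8 are filled and all lie below 0, with Ctss at -1.40 and Spi1 at -0.67, while Ciita (0.043) and Rfx5 (0.020) lie near 0.

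Marker lists of the cell types that an explant could hold were counted in the same comparison, in which 7.56% of all genes were lower and 8.64% higher. Of 14 macrophage markers measured, 7 were lower and 2 higher, and their mean level was 10.62 to 11.84 in the syngeneic and 10.59 to 11.20 in the allogeneic samples. Of 12 T cell markers 6 were lower and 0 higher, with levels of 8.18 to 8.97 and 7.89 to 8.45. Of 8 B cell markers 0 were lower and 1 higher (7.05 to 7.45 and 7.00 to 7.75), and of 6 dendritic and Langerhans cell markers 1 was lower and 1 higher (9.08 to 9.54 and 8.89 to 9.27). Cr2 of the B cell markers and Cd28 of the T cell markers were not well above background on at least 12 arrays. Of 9 fibroblast and endothelial markers 1 was lower and 4 were higher (11.33 to 11.75 and 11.50 to 11.93). The part of these cell types in the lower RT1-DM, RT1-DOb and RT1-Db2 signal was not tested.

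The genes outside the members whose log2 ratios followed each member most closely over the 12 rats, out of 7240, are given by Pearson's r as a description. Picked as the highest of 7240 values, these r are raised by the selection itself and were not tested. Cd74 came first for RT1-Da (r = 0.92) and for RT1-Db1 (r = 0.91), although neither these genes nor Cd74 passed the test of the mean. RT1-Da was next followed by Apbb1 (0.88) and Zap70 (0.87), and RT1-Db1 by Vdac1 (0.90) and the gene listed as Irf4_predicted (0.89). RT1-Ba was followed by Vdac1 (0.91), Irf4_predicted (0.90) and LOC500709 (0.90), and RT1-Bb by Rab40c, Eif4ebp1 and Tgfb3 (0.91 each). RT1-Db2 was followed by LOC307084 (0.90), Sema5a_predicted (0.88) and Tspan5 (0.87).

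The RT1-DM chains shared the gene listed as Selpl_predicted, with r = 0.95 for RT1-DMa and 0.94 for RT1-DMb, and its own log2-fold change was -0.17 (limma, adjusted p = 0.00751). RT1-DMa was further followed by Matk and Mfn2 (0.93 each), and RT1-DMb by RGD1564052_predicted and Coq8a (0.94 each). RT1-DOb was followed by Tnfsf13 (0.94), Inpp5d (0.93) and C2 (0.93), which were themselves lower by -0.80, -0.49 and -0.64. RT1-DOa was followed by Nell2, Snap25 and Cd79b (0.89 each). Leaving out rat 8, these correlations lay between 0.81 and 0.95.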

How the data were processed

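The study hybridized RNA of 2 explants from each of 12 BN rats to 24 custom two-color Agilent arrays with exchanged dyes. Spot intensities and local background were extracted with Feature Extraction 9.5.1.1 per the file headers and deposited without background subtraction. The processed intensities in the same files were background-subtracted and dye-normalized by that software before they were deposited. The authors also deposited log2 ratios, whose background treatment is not given in the sources used here. Each of the 24 columns correlated positively (0.704 to 0.959) with the allogeneic over syngeneic ratio, so their sign was kept as deposited. Normalization by loess and a mixed-effects ANOVA are named in the methods, and limma in the submitters' processing notes.

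Here R 4.3.3 with limma 3.58.1 was used. Background was corrected by normexp (offset 50), followed by loess on each array. Control spots (536 of 15744) and outlier spots were left out. Log2 ratios were turned by the dye labels and averaged first per probe, then over the 2 arrays of a rat. They were tested against 0 by limma with Benjamini-Hochberg adjustment over 8453 probes. Probes were averaged into genes and adjusted over 7249 genes. Symbols came from the MHC and NKC gene lists of the study, RefSeq accessions (4323 probes) and the file names (3394 probes). Levels per channel were computed after loess and quantile normalization of the average log intensity between arrays (Aquantile). Pairs were compared by 4096 sign permutations and 100000 permutations of pairings. The labels call the rats biological replicates, so the p-values rest on the spread between 12 rats, and the number of rats limits the precision.

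The members and gene lists were chosen with earlier results of these data known. All probes of the members are named. Of the partner and regulator lists, the named genes are those that passed and 7 set as background, of which Ctss and Ifi30 also passed, and for each member the 3 genes of highest r. Spacing of the promoter cores was set after the promoters were read. Data were simulated for this comparison, with 8453 probes in 12 rats and noise drawn independently for each probe. Effects of a rat shared by many probes were not simulated. In the simulated data limma recovered 73.1% of probes changed by 0.25 (log2), 94% of those changed by 0.5 and 100% of those changed by 1. The changed probes were drawn at random from the array. The rates thus do not hold for genes that spread as widely over rats as RT1-Bb, RT1-Da and RT1-Db1 (SD 0.36, 0.38 and 0.43). Alternatives concerned background, normalization, dye orientation, dim probes, outlier spots, slide, test, probe summary and single rats. Leaving out the first array of rat 10, the 4 rats with poorly correlated arrays, and these with rat 8 was chosen after seeing the data.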

Additional observations from a re-analysis of the deposited data

How the results depend on the processing

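The direction of RT1-DMa, RT1-DMb, RT1-DOb and RT1-Db2 was the same under every alternative run. Leaving out each rat in turn, the genes called were 3 to 4, with log2-fold changes of -1.06 to -0.93 for RT1-DMb, -0.50 to -0.39 for RT1-DMa, -0.24 to -0.20 for RT1-DOb, -0.43 to -0.30 for RT1-Db2 and -0.034 to 0.046 for RT1-Ba. With the brightest probe RT1-Db2 gave -0.26. Rats of slide 1 alone called 2 of 9 genes, 6 probes and 2 partner or regulator genes, with -0.14 for RT1-DOb, -0.26 for RT1-Db2, 0.033 for RT1-DOa, 0.10 for RT1-Da and 0.072 for RT1-Db1. Slide 2 alone called 0 genes (limma; 7 of all 7249 genes), 0 probes and 1 partner or regulator gene, with -0.61 for RT1-DMa, -1.24 for RT1-DMb, -0.32 for RT1-DOb, -0.40 for RT1-Db2 and -0.0041 for RT1-Ba. Slide 3 alone called 2 genes, 2 probes and 3 partner or regulator genes, with -0.43 for RT1-DMa, -0.96 for RT1-DMb, -0.21 for RT1-DOb, -0.41 for RT1-Db2, -0.072 for RT1-Ba, -0.088 for RT1-Bb, -0.28 for RT1-Da and -0.30 for RT1-Db1. A slide holds 4 rats, which lowers the number of calls by itself.

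The sign of RT1-Ba turned with an offset of 16 (-0.021), the processed signals (-0.17), median centring (-0.016) and the authors' table (-0.12). With the processed signals and in the authors' table only its poorly detected second version was negative. With the allogeneic sample in Cy5 alone RT1-Ba was -0.059, RT1-DOa gave 0.012 and RT1-Da 9.05e-06. Of the partner and regulator genes, 8 were called over both orientations, 14 in the Cy5 and 17 in the Cy3 orientation alone, and the cause was not tested. The difference of RT1-Bb and RT1-Ba was -0.053, and that of RT1-Db1 and RT1-Da 0.092, in the Cy3 orientation. Without the 4 rats whose arrays correlated under 0.5, 2 genes and 7 probes were called, with -0.46 for RT1-DMa and -0.36 for RT1-Db2. Without rat 8 as well, 2 genes were called, with -0.37 for RT1-DMa, -0.27 for RT1-Db2, 0.016 for RT1-Da and 0.015 for RT1-Db1. With all 24 arrays and the rat as a replicate block the same 4 of the 9 class II genes were called, as were 13 probes instead of 11, 12 partner or regulator genes instead of 8, and 1340 of all genes instead of 1174. Signal over background limits RT1-DOa, RT1-DOb and the second version of RT1-Ba.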
